A study of Homo sapiens with 3 samples.

Results

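Expression of 7 genes for secreted inflammatory mediators was followed in A549, a long-established line of human lung cancer cells, after knockdown of TAZ or YAP. The genes were CCL2, CXCL8, IL11, CXCL5, CSF1, PTGS2 and IL33, out of 14884 genes named on the array, and all 7 were among the 10768 genes kept by the filter on dim signals. They were picked by name, with their values on these arrays already known, so their levels are given as a description. Each gene was represented by 1 probe set, a group of probes on the chip summarised to 1 value. The study had 3 Affymetrix whole-transcript arrays, 1 for cells transfected with the control siRNA siNC, 1 for siTAZ and 1 for siYAP, and total RNA was taken 48 h after transfection in all of them. The siTAZ and siYAP reagents target WWTR1, which encodes TAZ, and YAP1. The labels name neither the siRNA sequences nor more than 1 siRNA per target, and the only line was A549. With 1 array per group there was no replicate, so no value below carries an error or a p-value, and no difference was set against the spread between cultures.

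These mediators are made by epithelial tumour cells as well as by immune cells. CCL2 attracts monocytes through the receptor CCR2, and CXCL8 (interleukin-8) and CXCL5 attract neutrophils through CXCR2. CSF1 supports the growth and survival of macrophages through CSF1R, and IL11 is a cytokine of the interleukin-6 family that signals through IL11RA and IL6ST. PTGS2 encodes cyclooxygenase-2, an enzyme that stays in the cell and makes the precursor of released prostaglandins. IL33 encodes an alarmin held in the nucleus and released from damaged cells, so these last genes are secreted only in a loose sense. YAP and TAZ are transcriptional co-activators of the Hippo pathway that bind DNA through TEAD factors, often beside AP-1, and many inflammatory genes are switched on by NF-kB, AP-1 and C/EBP factors.

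The DNA upstream of the start site is shown for a pair of genes that were lower in both knockdown arrays, CXCL8 and IL11, and a pair that stayed close to the control, CXCL5 and PTGS2. The windows are the 250 bases before the start in RefSeq on GRCh38.p14. They lie at chr4:73740319-73740568 on the plus strand (CXCL8), chr19:55370464-55370713 on the minus strand (IL11), chr4:73998678-73998927 on the minus strand (CXCL5) and chr1:186680424-186680673 on the minus strand (PTGS2). Capitals mark each match to the motifs searched, and each line runs 5′ to 3′ along the gene.
CXCL8: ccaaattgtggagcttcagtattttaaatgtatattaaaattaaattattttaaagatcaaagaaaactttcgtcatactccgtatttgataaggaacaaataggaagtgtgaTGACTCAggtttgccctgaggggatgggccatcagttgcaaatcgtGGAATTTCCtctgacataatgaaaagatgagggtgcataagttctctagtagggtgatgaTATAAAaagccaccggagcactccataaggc
IL11: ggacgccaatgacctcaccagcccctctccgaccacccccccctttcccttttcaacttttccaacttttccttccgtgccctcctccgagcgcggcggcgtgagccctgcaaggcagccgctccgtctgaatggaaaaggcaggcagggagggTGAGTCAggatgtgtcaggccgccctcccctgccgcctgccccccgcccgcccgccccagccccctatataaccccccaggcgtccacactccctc
CXCL5: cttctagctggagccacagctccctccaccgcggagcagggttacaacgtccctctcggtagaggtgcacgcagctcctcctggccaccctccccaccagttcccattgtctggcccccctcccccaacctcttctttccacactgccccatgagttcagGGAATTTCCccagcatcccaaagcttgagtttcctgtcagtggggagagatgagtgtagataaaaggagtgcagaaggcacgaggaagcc
PTGS2: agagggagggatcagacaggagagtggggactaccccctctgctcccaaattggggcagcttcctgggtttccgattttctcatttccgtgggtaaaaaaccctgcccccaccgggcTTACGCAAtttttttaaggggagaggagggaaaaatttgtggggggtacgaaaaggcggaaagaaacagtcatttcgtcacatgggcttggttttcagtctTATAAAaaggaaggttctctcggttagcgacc
The search covered both strands for TGANTCA (AP-1), GGAATG (TEAD), GGANTTTCC (NF-kB), TTNNGCAA (C/EBP) and TATAAA, the letters of a basal promoter element, motifs chosen after the gene values were known. No match overlapped another in these windows. Only these exact letters were counted, so other forms of the same sites would be left unmarked. A window without a match may therefore still hold such a site.

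The AP-1 letters were found in CXCL8, where the match TGACTCA began 137 bases before the start, and in IL11, where TGAGTCA began 96 bases before it. They were not found in the CXCL5 and PTGS2 windows, nor in the 2 windows listed for IL33. Of all 35116 promoter windows of this length, 6.57% held the AP-1 letters. The pairs of genes and the motifs were both chosen with the values known, so this split is a description only. A role of AP-1 was not tested. The NF-kB letters stood in CXCL8 (91 bases before the start) and in CXCL5 (90 bases before it), against 1.45% of all windows. The same 9 letters, GGAATTTCC, stood in both of these windows. PTGS2 held a C/EBP match, TTACGCAA, 133 bases before its start (9.05% of all windows hold one), and the letters TATAAA were found in CXCL8 and PTGS2 (10.7% of all windows). The TEAD letters were in 11.9% of all windows and in none of the windows of these 5 genes, which says only that these letters are not in these 250 bases. A window was available for 5 of the 7 genes, and CCL2 and CSF1, which had none, were not analysed here. CCL2 and CSF1 were also lower in both knockdown arrays, so the split leaves out part of the lowered genes.

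Values are RMA levels (background-corrected, quantile-normalised and summarised array signals) on a log2 scale, so a difference of 1 is 2-fold. They are compared between arrays for the same probe set only. The array medians over all probe sets were between 4.26 and 4.28, and the filter level was 4.27. The knockdown targets were lower in their own arrays: YAP1 was at 8.45, 8.24 and 6.87 in the siNC, siTAZ and siYAP arrays, and WWTR1 at 6.50, 5.81 and 6.50. The reductions were unequal in RNA, 2.99-fold for YAP1 in siYAP and 1.61-fold for WWTR1 in siTAZ. A dimmer probe set of YAP1 was at 4.95, 4.75 and 4.38 in the same order. Many values were exactly equal: 41.1% of the kept genes had the same value on all 3 arrays. None of the 7 mediators was among them. Of 12 epithelial and A549 markers, 5 were named on the array. In the control array KRT18 was at 11.6, EPCAM at 8.23, KRT7 at 6.51, KRT8 at 6.50 and KRT19 at 6.44. The summed log2 levels of these 5 were 39.3 (siNC), 38.5 (siTAZ) and 39.2 (siYAP). KRT7 differed most from the control, by -0.42 in siTAZ and 0 in siYAP. Of 12 leukocyte markers, 6 were named, and CD163 and LYZ were below the filter level in every array, while CSF1R (4.42) and CD14 (4.49 to 4.55) were just above it. The sum for the 4 kept leukocyte markers was 22.2, 22.6 and 22.7 in the same order. CD68, which cells outside the leukocyte lineage can also express, was at 8.43, 9.001 and 9.02, whereas TYROBP was at 4.86, 4.66 and 4.69. Of the fibroblast markers, DCN was at 2.38 on every array and LUM was at 7.45, 8.14 and 8.10, while THY1 was at 5.22, 5.06 and 5.06; the sum for the 2 kept ones was 12.7, 13.2 and 13.2. The 2 kept endothelial markers, VWF and CLDN5, were identical on the 3 arrays. Below the filter level, PECAM1 was at 3.60, 3.90 and 3.80, EMCN at 2.32, 2.32 and 2.26, and KDR at 3.89 on every array. The part of these markers in the results was not tested. In RNA from a whole culture, fewer cells of a kind and less RNA per cell cannot be told apart.

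**Figure D1:**
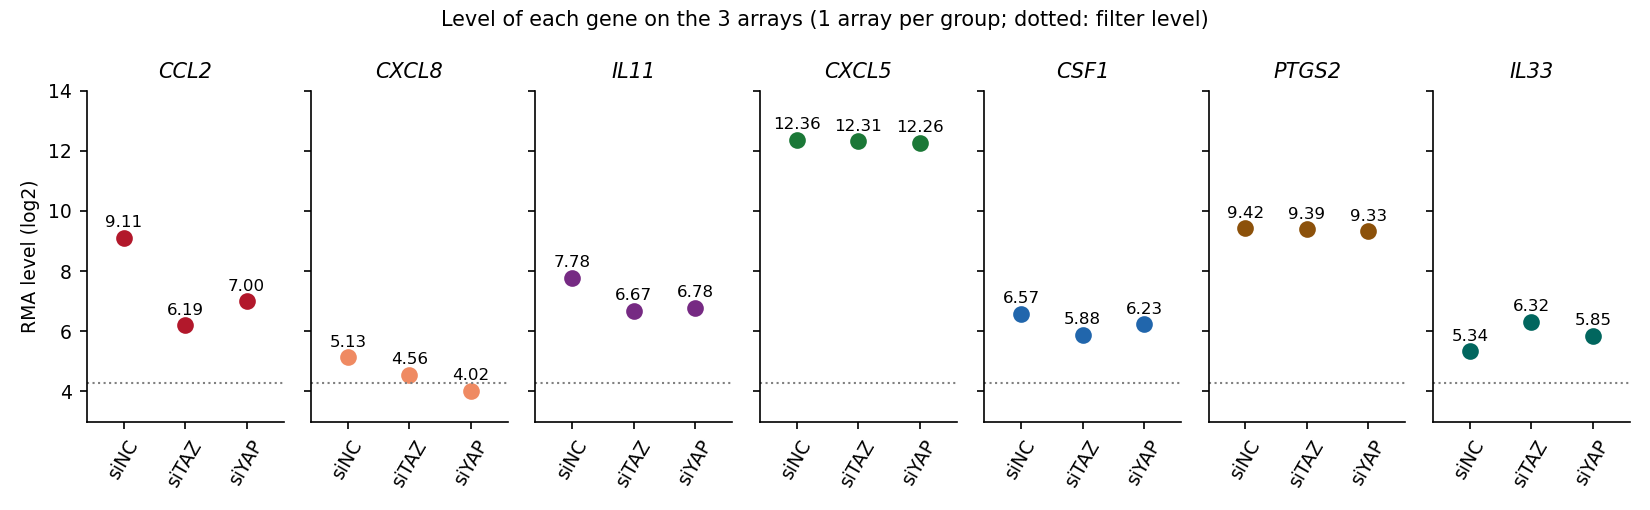
RMA level (log2, vertical axis) of each of the 7 genes on the siNC, siTAZ and siYAP arrays, with 1 point per array and the filter level of 4.27 as a dotted line. CCL2, CXCL8, IL11 and CSF1 are highest in siNC, IL33 is lowest there, and CXCL5 and PTGS2 are nearly level; heights are comparable within a gene, not between genes.

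In the siTAZ array, 6 of the 7 genes were below the control and 1 was above it, where 21.7% of all kept genes were below and 29.7% above by any amount. A further 48.5% of all kept genes were identical to the control. None of the 7 was, so these any-amount shares are not a like comparison. At 1.5-fold, 3 were lower (CCL2, IL11 and CSF1) and 1 was higher (IL33), and at 2-fold 2 were lower and 0 higher. Of all kept genes 1.02% passed 1.5-fold in the lower direction and 0.762% in the higher one; at 2-fold the shares were 0.241% and 0.0743%. The median difference was -0.58 over the 7 genes and 0 over all kept genes, where the ties hold it at 0. In the siYAP array again 6 were below and 1 above the control, against 21.7% and 27% of all kept genes, with 51.3% identical to the control. Here CCL2, CXCL8 and IL11 (3 genes) were lower by 1.5-fold or more, all of them also past 2-fold, and 0 were higher by that much. The shares over all kept genes were 0.381% lower and 0.52% higher at 1.5-fold, and 0.121% lower and 0.0743% higher at 2-fold. The median over the 7 was -0.35, against 0 over all kept genes, again held there by ties. The genes were chosen with these values known, so the counts describe them and support nothing further. Both comparisons use the same control array. With the reference taken as the average of siNC and the other knockdown, CSF1 in siTAZ (-0.52) and IL11 in siYAP (-0.45) were no longer past 1.5-fold, while CCL2 was at -1.86 in siTAZ and -0.65 in siYAP.

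**Figure D2:**
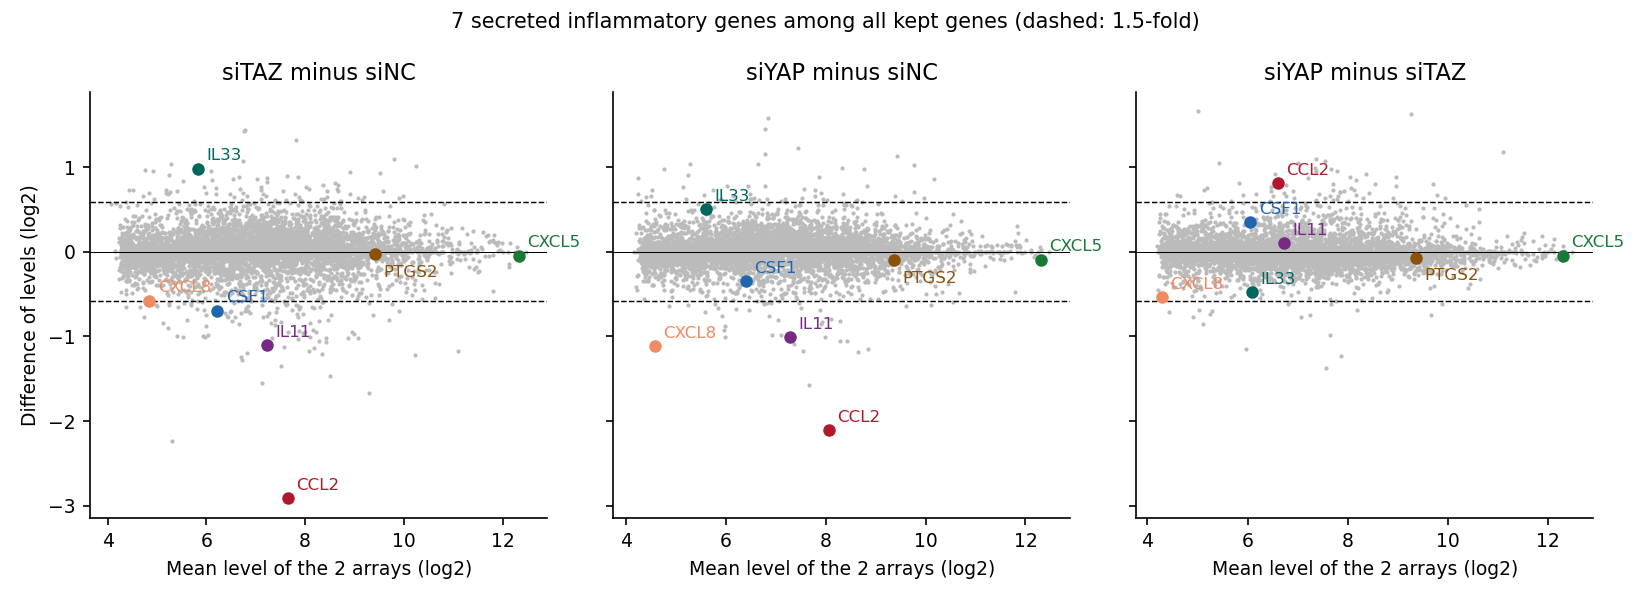
Difference between 2 arrays (log2, vertical axis) against their mean level (log2, horizontal axis) for the 10768 kept genes in grey and the 7 genes in colour, in 3 panels for siTAZ minus siNC, siYAP minus siNC and siYAP minus siTAZ; dashed lines mark 1.5-fold. CCL2 is the lowest point of both panels against siNC, and CXCL5 and PTGS2 lie close to 0 in every panel.

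Among the chemokines, CCL2 was at 9.11 in the siNC array, 6.19 in siTAZ and 7.001 in siYAP. The control array was highest and the siTAZ array lowest. The siTAZ level was 13.3% of the control on the linear scale, and the siYAP level 23.2%, and in each comparison CCL2 ranked 1 from the lowest among 10768 genes. Both knockdown levels stayed above the filter level, so the folds (7.55 and 4.31) did not run into the dim range. The siYAP value was shared with 19 other probe sets.

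CXCL8 was at 5.13 in the siNC array, 4.56 in siTAZ and 4.02 in siYAP. For this chemokine the control array was again highest, but the siYAP array was the lowest, where for CCL2 it was the siTAZ array. The siTAZ level was 67.1% of the control (1.49-fold lower, just under the 1.5-fold threshold), and the siYAP level was 46.3% (2.16-fold lower). The siYAP level lay below the filter level of 4.27, and with dim values raised to that level the difference was -0.87 in place of -1.11, no longer 2-fold. The control value was also not unique: 162 other probe sets had exactly this value in the siNC array. What this tie means for the resolution of the value was not tested.

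CXCL5, which binds the same receptor as CXCL8, was at 12.36, 12.31 and 12.26 in the siNC, siTAZ and siYAP arrays. The 3 values differed little. They were 96.9% and 93.8% of the control in the siTAZ and siYAP arrays. These levels are near the top of the scale, which ended at 13.51 in the control array. Of the 68 kept genes with a mean level of at least 11, 1 differed by 1.5-fold in either direction after siTAZ and 0 after siYAP. The corresponding shares were 1.47% and 0% for these bright genes, and 1.78% and 0.901% for all kept genes.

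The other chemokines came from a list drawn up from general knowledge of the family. Of 17 listed, 16 had a named probe set, 8 of them kept, and none of these 8 reached 1.5-fold in either comparison. As 1.78% of all kept genes in siTAZ and 0.901% in siYAP passed 1.5-fold in either direction, a count of 0 among so few genes does not set the list apart. Of those 8, 6 had identical values on all 3 arrays, where 41.1% of all kept genes did. The 6 included CXCL2 (6.31) and CXCL3 (5.31), which like CXCL5 and CXCL8 attract neutrophils. CXCL6 was at 2.11 on every array, below the filter level. CXCL16, a chemokine with a membrane-bound form, was at 7.58, 8.13 and 7.95, higher in both knockdown arrays by 0.56 and 0.37. It is named here after its value was seen.

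Among the cytokines and growth factors, IL11 was at 7.78 in the siNC array, 6.67 in siTAZ and 6.78 in siYAP. The control array was highest and the knockdown arrays were close to each other. The levels were 46.4% and 49.8% of the control, the second only just past 2-fold (2.01-fold), and IL11 ranked 16 from the lowest in the siTAZ and 10 from the lowest in the siYAP comparison. The siTAZ value was shared with 15 other probe sets.

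CSF1 was at 6.57 in the siNC array, 5.88 in siTAZ and 6.23 in siYAP. As for CCL2, the siTAZ array was lowest and the siYAP array lay between it and the control. The siTAZ level was 61.8% of the control (1.62-fold lower, rank 74 from the lowest) and the siYAP level 78.5% (1.27-fold lower, under the threshold).

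IL33 was at 5.34 in the siNC array, 6.32 in siTAZ and 5.85 in siYAP. It was the only one of the 7 with its lowest level in the control array. The siTAZ level was 1.98-fold higher, rank 9 from the highest among the kept genes, and the siYAP level 1.42-fold higher, rank 78 from the highest. The siTAZ value was shared with 24 other probe sets.

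Other cytokines were measured in part. Of 26 on a list drawn up from general knowledge, 13 were named, 9 were kept, and none of the 9 reached 1.5-fold in either comparison, which is close to the shares of 1.78% and 0.901% over all kept genes. In siTAZ cells 3 were lower, 5 higher and 1 identical, with a median of 0.011. In siYAP cells 3 were lower and 3 higher, with a median of 0. The values furthest from the control in siTAZ, named after they were seen, were IL18, an inflammasome-processed cytokine, at 8.56, 8.04 and 8.42, and IL15, a lymphocyte growth factor, at 5.09, 5.61 and 5.13. LIF, which like IL11 belongs to the interleukin-6 family, was at 7.27, 7.16 and 7.06. Its siYAP difference was the largest of the 9 in size, and its differences of -0.12 and -0.22 were smaller than those of IL11 (-1.11 and -1.01).

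The receptors of these mediators gave mostly low values. Of 14 listed, 9 were named, 7 of them below the filter level, and all 9 had identical values on the 3 arrays. Such ties were common, as 41.1% of all kept genes were identical on the 3 arrays, and no share was computed for dim genes. The identity is therefore not read as a result about the receptors. Only IL1RAP (5.29), a co-receptor for interleukin-33, and CSF1R (4.42) were above the filter level. Neither value was unique to its gene: VWF had exactly the CSF1R value on every array, and the cytokine gene CSF3 had the IL1RAP value in both knockdown arrays. CCR2 (3.22), CXCR1 (2.97), CXCR2 (3.08) and IL1RL1 (4.03), the receptor for interleukin-33, were below it.

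PTGS2 was at 9.42 in the siNC array, 9.39 in siTAZ and 9.33 in siYAP. The levels were 98.0% and 93.5% of the control. Of 14 genes of prostanoid synthesis and breakdown, 11 were named and 10 kept. Identical on all 3 arrays were 5 of the 10, against 41.1% of all kept genes. At 1.5-fold in either direction 0 of the 10 passed in siTAZ and 1 in siYAP. The shares over all kept genes were 1.78% and 0.901%. PTGES, the synthase that turns the cyclooxygenase product into prostaglandin E2, was at 7.56 in the siNC array, 7.30 in siTAZ and 8.25 in siYAP. Here the siYAP array was highest and the siTAZ array lowest. The siYAP level was 1.61-fold above the control, and the difference between the knockdown arrays was 0.96. The other synthases PTGES2 (7.03) and PTGES3 (10.3) were identical on the 3 arrays.

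The transcription factors named above as regulators of such genes were measured in part. Of 20 NF-kB subunits, kinases and inhibitors, 10 were named and 9 kept, none of which reached 1.5-fold, and the median was 0 in both comparisons. Neither sets the list apart, since the median over all kept genes was also 0 and 1.78% and 0.901% of them passed 1.5-fold. RELA (7.83) and NFKB2 (6.23) were identical on the 3 arrays, REL was higher by 0.20 in both knockdown arrays, and RELB was lower by 0.13 and 0.19. NFKBIA and TNFAIP3, widely used readouts of NF-kB activity, have no value here.

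Among 12 AP-1 and C/EBP factors 8 were named, all of them AP-1 members or ATF3, and all 8 were kept. FOSL1, the AP-1 subunit FRA-1, was at 7.11, 6.63 and 6.51 in the siNC, siTAZ and siYAP arrays, which was 1.40-fold lower and 1.52-fold lower than the control. JUN was at 6.86 in the control array and 6.52 in both knockdown arrays, a difference of -0.34. JUND was at 6.79, 7.66 and 7.26, which was 1.83-fold and 1.38-fold higher. JUNB (7.46), FOSB (5.61) and ATF3 (4.42) were identical on the 3 arrays. The medians over the 8 were 0 in both comparisons. At 1.5-fold 1 of the 8 was higher and 0 lower in siTAZ, and 1 was lower and 0 higher in siYAP. The shares over all kept genes in either direction were 1.78% and 0.901%. The list was drawn up with earlier results of these data known, so the counts are a description only.

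Many cytokine mRNAs carry AU-rich elements that control how long they last. Of 14 regulators of such mRNAs, 8 were named and kept. DCP2, the catalytic subunit of the mRNA-decapping enzyme, was at 8.14, 7.51 and 6.96, which was 1.55-fold and 2.26-fold lower. KHSRP, an RNA-binding protein that promotes decay of AU-rich mRNAs, was at 6.88, 7.55 and 7.50, which was 1.59-fold and 1.54-fold higher. The other 6, such as ZC3H12A (7.09, 7.09 and 7.12) and RC3H1 (8.79, 8.70 and 8.70), differed from the control by at most 0.09. The medians over the 8 genes were 0 and 0.014. At 1.5-fold 1 of the 8 was lower and 1 higher in each comparison. The shares over all kept genes in either direction were 1.78% in siTAZ and 0.901% in siYAP. This list too was drawn up with earlier results known, so the counts are a description only.

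**Figure D3:**
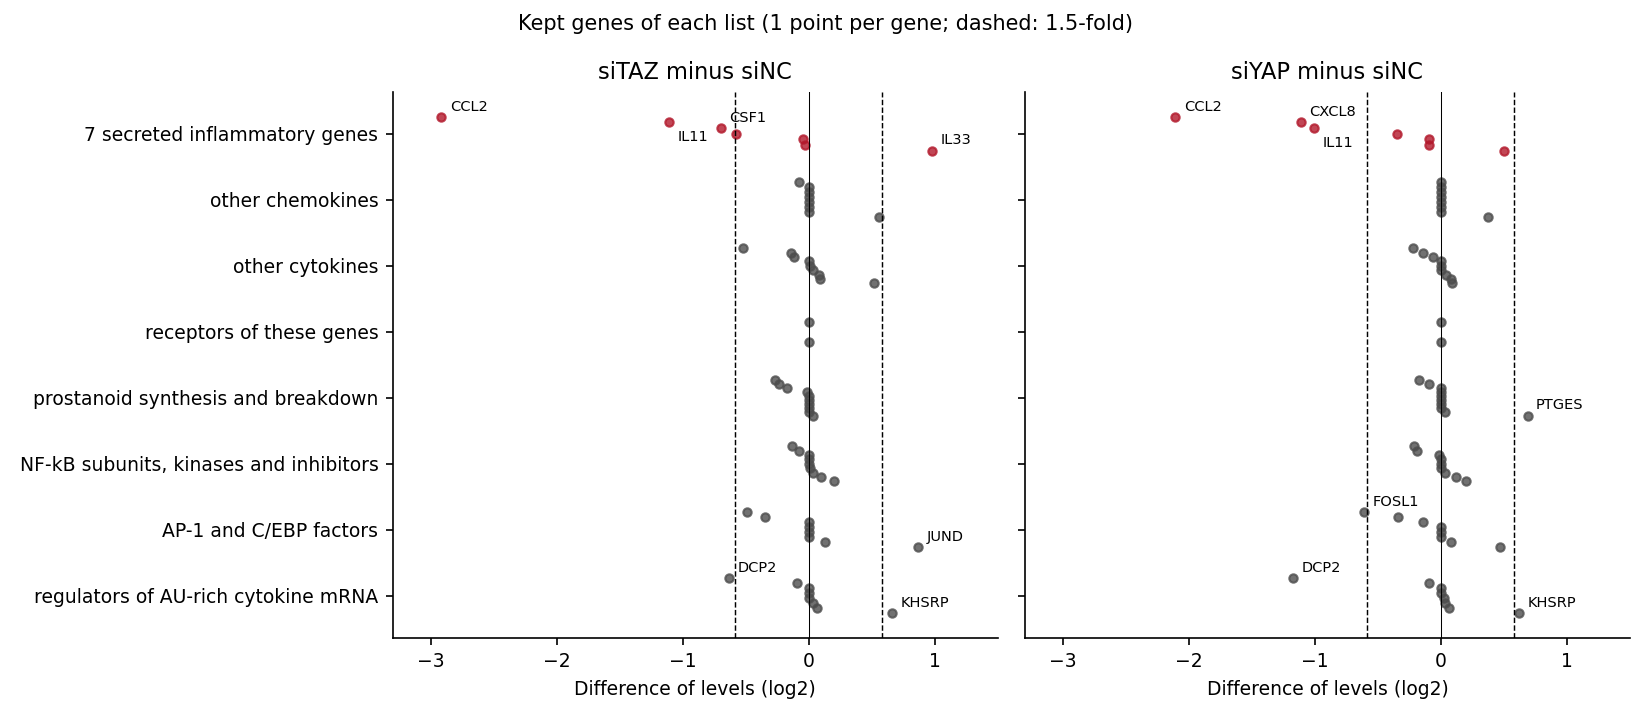
Difference from the siNC array (log2, horizontal axis) in the siTAZ array (left) and the siYAP array (right) for each kept gene of 8 lists, with 1 point per gene and dashed lines at 1.5-fold; genes past 1.5-fold are named. Apart from the 7 genes, which were chosen with their values known, the genes past a line are JUND, DCP2 and KHSRP on the left and PTGES, FOSL1, DCP2 and KHSRP on the right.

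The knockdown arrays were also set directly against each other, without subtracting the control. At 1.5-fold, 1 of the 7 genes, CCL2, was higher in the siYAP than in the siTAZ array and 0 were lower, where 0.566% of all kept genes were higher and 0.176% lower. CCL2 was 1.75-fold higher in the siYAP array, rank 20 from the highest. CXCL8 was 1.45-fold lower in the siYAP array, rank 26 from the lowest, but 1.22-fold lower with its dim siYAP level raised to the filter level. IL33 was 1.39-fold lower, rank 35 from the lowest. CSF1 was 1.27-fold higher. IL11 (0.10), CXCL5 (-0.047) and PTGS2 (-0.068) differed little between the knockdown arrays on the log2 scale.

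Genes with the most similar values were found by the distance between their pairs of log2 differences from the control, over the 3 arrays. CCL2 had no close neighbour: the nearest of 10767 other genes were ANKRD1, CCN2 and AXL, at distances of 1.68, 1.70 and 1.72, and 0 genes lay within 0.1. With dim levels raised to the filter level the same 3 were nearest, with CCN2 before ANKRD1. ANKRD1 was at 6.41, 4.18 and 5.84, CCN2 at 7.90, 6.35 and 6.81, and AXL at 9.24, 7.78 and 8.06. These 3 are widely used YAP/TAZ target genes, and in each the siTAZ array was lowest, as for CCL2. CCL2 ranked 1 from the lowest in both comparisons, so its nearest genes could only be less strongly lowered ones. More kept genes were at least 1.5-fold lower in siTAZ (1.02%) than in siYAP (0.381%). Between the knockdown arrays, 61 kept genes (0.566%) were at least 1.5-fold higher in siYAP and 19 (0.176%) lower. A siTAZ level below the siYAP level was therefore not confined to these genes. How many kept genes were lowest in siTAZ was not counted. A likeness of CCL2 to these targets was not tested.

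The nearest gene to CXCL8 was DCP2, at a distance of 0.082, followed by SCML2 (0.17) and GXYLT1 (0.30). This order rests on the dim siYAP level of CXCL8: with levels under the filter raised to it, the nearest were PLSCR4 (0.080), SUCO (0.11) and GXYLT1 (0.11), and DCP2 ranked 22 at 0.31. Nearest to IL11 were the cell polarity gene PARD6B (0.064), the protease-activated receptor gene F2RL2 (0.096) and MMD (0.10). CSF1 had 5 genes within 0.1, led by DDX19A, NT5DC3 and PHLPP2. IL33 had 1, the long non-coding RNA LOC730101 (0.079), with the transcription factor genes MAZ (0.10) and JUND (0.12) next. CXCL5 and PTGS2, by contrast, had 1403 and 1359 of the 10767 other genes within 0.1. The nearest to CXCL5 were SCARNA22, BTRC and MIR4418, and to PTGS2 SMCHD1, SIN3A and NHS. Every list of near genes rests on 3 arrays and says nothing of shared control.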

How the data were processed

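Total RNA from A549 cells 48 h after siRNA transfection was hybridised to 3 arrays, 1 per group, from 500 ng of RNA per the labels' protocols. The authors summarised the arrays with RMA, per the submitters' processing notes; a version of RMA and a genome build were not given in the sources used here. Deposited values were taken to be log2, given their range (0.961 to 13.54) and near-equal medians. Quantile normalization makes every value relative to its array.

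The platform annotation gave 16098 of 53617 probe sets 1 gene symbol, and all 16098 probe sets had an Entrez identifier found in RefSeq (GRCh38.p14). The brightest probe set stood for each gene, and genes with a mean at or above 4.27, the median over probe sets, were kept. Differences are of log2 levels, computed with pandas 2.3.3, and were counted at 1.5-fold and 2-fold, with no test. The counting step was tested on simulated data. The number of arrays limits the precision.

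The members and lists were chosen with earlier results of these data known. Named genes were the 7 members, WWTR1, YAP1, CCN2, ANKRD1 and AXL, up to 4 genes per list past 1.5-fold, and the 3 nearest genes of each member; others are named as examples after their values were seen. Alternatives were other filters, centring, a lowess trend, quantile normalization repeated, averaged probe sets, a floor and another reference.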

Additional observations from a re-analysis of the deposited data

How the results depend on the processing

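With 1 array per group no setting can replace replicates. Of 179 values of single genes under the alternatives, 175 kept their direction and their side of 1.5-fold, 2 fell below it and 2 changed sign. Many of the 175 could not change. Other filters, and leaving out identical genes, do not alter a gene's value. Centring shifted by medians of 0, and averaging had no effect with 1 probe set per gene. The floor altered only CXCL8. The count of 175 is therefore no measure of robustness. All 4 exceptions came with a reference that averaged the control with the other knockdown: CSF1 in siTAZ (-0.52) and IL11 in siYAP (-0.45) were under 1.5-fold, and CXCL5 (0.00056) and PTGS2 (0.020) in siTAZ turned from just below to just above 0. That reference contains a knockdown array, so it shrinks differences common to both: the median over the 7 genes was -0.020 in siTAZ and -0.082 in siYAP, and over all genes 67 were lower and 25 higher in siTAZ, and 12 lower and 19 higher in siYAP, at 1.5-fold. CCL2 was then at -1.86 and -0.65, and 3 differences already under 1.5-fold came close to 0: CXCL8 in siTAZ (-0.020), and IL33 (0.014) and CSF1 (-0.00078) in siYAP. With the filter at the upper quartile (5.81), which leaves out CXCL8, the medians were -0.37 in siTAZ, -0.22 in siYAP and 0.027, against -0.047, in siYAP minus siTAZ, a change of sign. Without a filter 32 genes, against 19, were at least 1.5-fold lower in siYAP minus siTAZ. Leaving out genes identical on all 3 arrays, chosen after seeing the data, left the counts as they were, by construction, and raised the share at least 1.5-fold lower to 1.73% in siTAZ and 0.646% in siYAP. No paired analysis was possible because each group had 1 array.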

Other observations

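The genes that flank the 7 mediators on their chromosomes were looked at after the data were seen, for the 5 protein-coding genes on each side in the RefSeq order. Of these neighbours 34 distinct genes were kept; in the siTAZ array 0 were at least 1.5-fold lower and 1 was higher, and in the siYAP array likewise 0 and 1, with medians of 0. These counts are near the shares over all kept genes (1.02% lower and 0.762% higher in siTAZ, 0.381% and 0.52% in siYAP). CCL2 is followed by the chemokine genes CCL7, CCL11 and CCL8, which were all below the filter level, at 2.39, 2.44 and 2.44 in the control array, and were 0.20, 0.22 and 0.10 higher in the siTAZ array and identical in the siYAP array. CXCL8 and CXCL5 belong to the same CXC chemokine cluster on chromosome 4, where PF4 was at 6.66, 6.47 and 6.66 and PPBP at 4.66, 4.66 and 4.78. At the edge of that cluster EREG, an EGFR ligand gene, was at 8.55 in the siNC and siTAZ arrays and 7.98 in the siYAP array. RANBP6, the gene before IL33, was at 6.72, 7.48 and 7.05, the same order of arrays as IL33, and was the neighbour past 1.5-fold in the siTAZ array. TMEM238, near IL11, was the one in the siYAP array, at 6.81, 7.33 and 7.41, opposite in direction to IL11.

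Exact ties were common in the deposited table. Between 48.6% and 50.9% of the kept genes shared their level on an array, to the last digit, with at least 1 other probe set of that array. Among the mediators this held for CCL2 (1 other probe set in the siNC array and 19 in the siYAP array), CXCL8, IL11 and IL33, and for no value of CXCL5, CSF1 or PTGS2. The source of the ties was not tested.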
